A study of Caenorhabditis elegans with 6 samples.

Results

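The 10 genes described here code for components of P granules, the germ granules of the nematode Caenorhabditis elegans. They were chosen by name from the deposited table of read counts per gene: pgl-1, pgl-3, glh-1, glh-2, glh-4, deps-1, meg-1, meg-2, meg-3 and meg-4, which are 10 of its 46659 rows. All 10 had enough counts to be tested.

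P granules are condensates of RNA and protein without a membrane, found in germ cells and in the cells of the embryo that give rise to them. They are passed to the egg by the mother. In the early embryo they are dissolved in one part of the cell and rebuilt in the other, so that after each asymmetric division they lie in the germline cell. They hold maternal messenger RNAs and several Argonaute proteins, and are known for their part in small RNA pathways and germ cell fate. PGL proteins form the core, GLH proteins are RNA helicases at the rim, and MEG proteins bring about assembly and segregation in the embryo.

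RNA from whole embryos of 2 genotypes was sequenced after depletion of ribosomal RNA, with 3 biological replicates each. The first genotype carries dot-1.1(knu339) together with ced-3(n1286), and the other carries ced-3(n1286) alone, so that the ced-3 mutation, in the gene of the caspase of programmed cell death, is shared by both. These are called double mutant and single mutant embryos below. DOT-1.1 is related to the mammalian histone methyltransferase DOT1L. The study's title ties DOT-1.1 deficiency to gene activation that needs small RNAs, and the comparison here asks how the messenger RNAs of a germ granule differ between the genotypes. Animals were kept at 20 °C on E. coli OP50, and eggs were taken with hypochlorite from synchronized egg-laying adults. The labels give no embryonic stage, number of animals or age of the embryos, and they do not describe the lesion of knu339.

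Library totals were 66316445 to 75279479 counts in double mutant embryos and 68832040 to 77957224 counts in single mutant embryos. The dot-1.1 transcript was found in every library, at 42.4 ± 17.9 CPM (counts scaled by library size) in libraries labelled double mutant and 49.2 ± 16.3 CPM in single mutant libraries (SD, n = 3 each; adjusted p = 0.806, edgeR), so its level does not check the genotype labels. Markers of embryonic muscle, pharynx, intestine, neurons and epidermis were found in every library. Adult tissue markers (yolk protein genes and col-19) summed to 3.65 to 4.15 CPM in double mutant embryos and 1.33 to 2.26 CPM in single mutant embryos, with col-19 at 0 in every single mutant library. The 34 sperm genes summed to 1.51 to 2.33 CPM in double mutant and 1.88 to 2.45 CPM in single mutant embryos, and 3 of them were at 0 in all libraries.

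No P granule gene passed the test between the genotypes, with 0 of 10 called in either direction at an adjusted p under 0.05 (edgeR, Benjamini-Hochberg over 17365 genes). Over all genes tested the share called was 0.0806%, which is 14 genes, all higher in double mutant embryos. The adjusted p of the 10 genes lay between 0.472 and 0.995, and 0 of them had an unadjusted p under 0.05, against 12.1% of all tested genes. DESeq2 called 0 of 10 as well, against 3.05% of the genes to which it gave an adjusted p, and 0 of 10 had an unadjusted p under 0.05 by DESeq2, against 13.4% of all genes. Fitted values lay below 0 for 8 genes and above 0 for glh-1 and glh-2, with a median log2 fold change of -0.28 (double over single mutant), while the median over all genes tested was -0.02 and 52.1% of them lay below 0. None of the fitted log2 changes exceeded 0.41 in size. In values from whole embryos, the number of germline cells, the RNA per cell and the age of the embryos cannot be told apart.

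**Figure D1:**
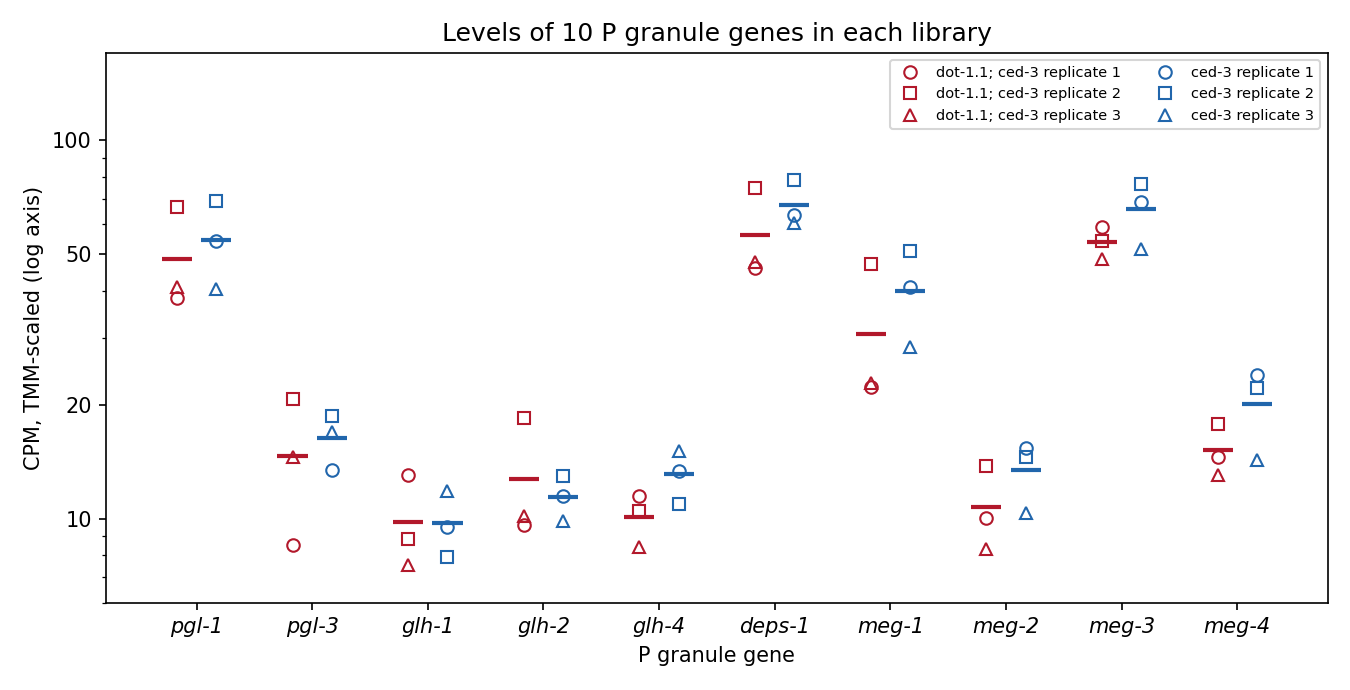
CPM (log axis) of each P granule gene in every library, with double mutant (dot-1.1; ced-3) embryos in red on the left and single mutant (ced-3) embryos in blue on the right of each gene; symbols mark the replicate number and lines the mean of 3 libraries. The ranges of the genotypes overlap for all 10 genes.

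The PGL genes code for the scaffold proteins that separate into the droplets of the granule core and hold RNA through their arginine and glycine repeats. Of these, pgl-1 (ZK381.4, WBcel235 chromosome IV, 6974441 to 6977318, minus strand) had 38.3, 66.7 and 40.9 CPM in the double mutant libraries and 54.1, 69.2 and 40.6 CPM in the single mutant libraries, in the order of replicates 1 to 3. It was high in replicate 2 of both genotypes, and the genotypes overlapped. The means of 48.6 ± 15.7 CPM in double and 54.6 ± 14.3 CPM in single mutants (SD, n = 3 each) differed by less than either SD. The log2 fold change was -0.17 ± 0.26 SE (adjusted p = 0.805, edgeR).

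Its paralogue pgl-3 (C18G1.4, chromosome V, 4755979 to 4758587, plus strand) had 8.54, 20.7 and 14.6 CPM in double mutant embryos against 13.5, 18.7 and 16.9 CPM in single mutant embryos. Replicate 1 was the lowest library in each genotype, and the double mutant libraries spanned the whole range of the others. The log2 fold change was -0.16 ± 0.30 SE (adjusted p = 0.840, edgeR), with a 95% interval of 0.558-fold to 1.43-fold. Without double mutant replicate 1 it was 0.10, and that of pgl-1 was 0.04 without single mutant replicate 2, so both signs rested on single libraries.

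The GLH proteins are DEAD-box RNA helicases related to Vasa, with repeats like those of nuclear pore proteins that help hold the granules at the nuclear envelope. All 3 genes described lie on chromosome I. The gene glh-1 (T21G5.3, 6854478 to 6857536, plus strand) had 13.02, 8.82 and 7.55 CPM in double mutant libraries and 9.48, 7.94 and 11.8 CPM in single mutant libraries. Its highest and its lowest library were both double mutant libraries. The means of 9.80 ± 2.86 CPM in double and 9.74 ± 1.95 CPM in single mutants (SD, n = 3 each) gave a log2 fold change of 0.01 ± 0.25 SE (adjusted p = 0.995, edgeR), which was -0.01 with the replicate number as a block, and the 95% interval still allows 0.68-fold to 1.49-fold.

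The gene glh-2 (C55B7.1, 6513928 to 6517507, plus strand) had 9.62, 18.4 and 10.19 CPM in double mutant embryos and 11.5, 12.9 and 9.87 CPM in single mutant embryos. The library of double mutant replicate 2 stood above the others, which lay between 9.62 and 12.9 CPM. With it the log2 fold change was 0.16 ± 0.27 SE (adjusted p = 0.827, edgeR), and without it -0.18. For glh-4 (T12F5.3, 3727027 to 3731179, plus strand), whose coding sequence is the longest of the 3, values were 11.5, 10.5 and 8.40 CPM in double mutant libraries and 13.4, 10.9 and 15.1 CPM in single mutant libraries. Its level was lower in the double mutant library of all 3 same-numbered pairs, yet the genotypes overlapped between 10.9 and 11.5 CPM. It had the smallest adjusted p of the 10 genes, 0.472, with a log2 fold change of -0.37 ± 0.20 SE (edgeR).

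DEPS-1 is a P granule protein needed for PGL-1 to gather into granules and for normal amounts of glh-1 messenger RNA. Its gene deps-1 (Y65B4BL.2, chromosome I, 506473 to 509056, plus strand) had 46.0, 74.8 and 47.6 CPM in double mutant embryos and 63.4, 78.5 and 60.3 CPM in single mutant embryos. Double mutant replicates 1 and 3 lay below every single mutant library and replicate 2 lay among them. The means were 56.15 ± 16.21 CPM in double and 67.4 ± 9.73 CPM in single mutants (SD, n = 3 each; log2 fold change -0.26 ± 0.20 SE, adjusted p = 0.607, edgeR). The glh-1 transcript did not follow this order, since its highest value, 13.02 CPM, was in double mutant replicate 1, where deps-1 was lowest. An exon of deps-1 shares 109 bp with Y65B4BL.7 on the other strand, which had 1.399 ± 0.362 CPM in double mutant and 1.357 ± 0.388 CPM in single mutant embryos (SD, n = 3 each).

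The MEG proteins are largely disordered proteins rich in serine that act in the embryo. MEG-1 and MEG-2 were named for maternal-effect germ-cell defects, and MEG-3 and MEG-4 coat the PGL droplets and bring maternal messenger RNAs into the granules. All 4 genes lie on the X chromosome. The neighbours meg-1 (K02B9.1, 13927036 to 13929634) and meg-2 (K02B9.2, 13922643 to 13926129) lie 906 bp apart on the minus strand. Of these, meg-1 had 22.3, 47.2 and 22.9 CPM in double mutant embryos and 40.8, 50.9 and 28.4 CPM in single mutant embryos. Double mutant replicates 1 and 3 were below every single mutant library, and replicate 2 was above all but its own counterpart. The log2 fold change was -0.38 ± 0.33 SE (adjusted p = 0.650, edgeR), and this gene had the widest 95% interval of the 10 on the log scale, 0.455-fold to 1.3-fold. The levels of meg-2 were 10.03, 13.8 and 8.32 CPM in double mutant embryos and 15.4, 14.5 and 10.3 CPM in single mutant embryos, which also overlap (log2 fold change -0.32 ± 0.24 SE, adjusted p = 0.595, edgeR).

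The other MEG genes lie apart on the left part of the X chromosome. The level of meg-3 (F52D2.4, 1986469 to 1989607, minus strand) was 58.9, 54.03 and 48.5 CPM in double mutant libraries and 68.9, 76.5 and 51.7 CPM in single mutant libraries. Only single mutant replicate 3 lay within the range of the double mutant libraries. The log2 fold change was -0.29 ± 0.16 SE (adjusted p = 0.505, edgeR), with a 95% interval of 0.636-fold to 1.06-fold, the narrowest of the 10 genes on the log scale. For meg-4 (C36C9.1, 1682954 to 1686419, plus strand) the values were 14.6, 17.8 and 13.1 CPM in double mutant libraries and 23.9, 22.1 and 14.3 CPM in single mutant libraries. Here too single mutant replicate 3 fell among the double mutant libraries. Its log2 fold change was -0.41 ± 0.22 SE (adjusted p = 0.489, edgeR; 95% interval 0.531-fold to 1.07-fold), the largest of the 10 in size in the fit without the replicate block, whereas meg-1 had the largest with it. The 2650 tested genes of the X chromosome had a median log2 fold change of 0.03, and the 2651 of chromosome I one of -0.04.

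Counting error was small beside these differences between libraries. The lowest count of any of the 10 genes was 543, for pgl-3 in double mutant replicate 1, and the highest 6120, for deps-1 in single mutant replicate 2, so that the counting error of a single value was at most 4.29%. The highest double mutant library was 1.21-fold (meg-3) to 2.43-fold (pgl-3) above the lowest of the same genotype, and 1.3-fold (deps-1) to 1.79-fold (meg-1) among the single mutant libraries.

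Some of this variation followed the replicate number. In replicate 2, pgl-1, pgl-3, glh-2, deps-1 and meg-1 had their highest level within each genotype, which makes 5 of 10 genes. The share of all tested genes with this order was not computed, so whether 5 of 10 is unusual is not known. The median deviation of the 10 genes from their own mean over 6 libraries was -0.26, 0.27 and -0.35 (log2) in double mutant replicates 1, 2 and 3, and 0.17, 0.35 and -0.19 in single mutant replicates 1, 2 and 3. In double mutant replicate 3, 0 of 10 genes were above their own mean, and in single mutant replicate 2, 8 of 10 were. Over all tested genes the same medians stayed between -0.02 and 0.03. The scaling of the libraries holds these medians near 0, so they do not show how far other sets of 10 genes deviate. The helicase genes glh-1 and glh-4 had another order, highest in double mutant replicate 1 and single mutant replicate 3 and below their mean in replicate 2 of both genotypes.

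**Figure D2:**
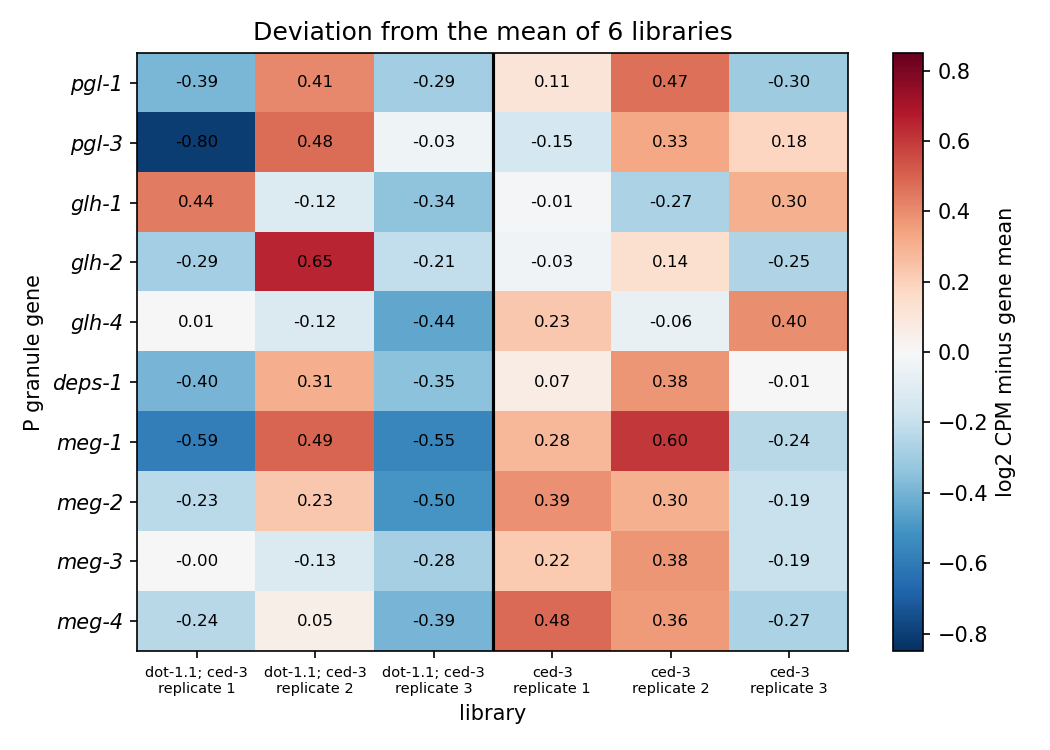
Deviation of log2 CPM from the mean of the same gene over 6 libraries, for each P granule gene (rows) and library (columns, dot-1.1; ced-3 double mutants left of the line and ced-3 single mutants right of it); red is above the mean and blue below. Most genes are red in replicate 2 of both genotypes (0.49 and 0.60 for meg-1), while glh-1 and glh-4 are blue in both and meg-3 is blue in the double mutant one.

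The genotypes were therefore also compared with the replicate number as a block, since libraries of the same number deviated together over all genes. No P granule gene passed in this fit either (0 of 10, adjusted p = 0.129 to 0.985, edgeR), while 4.01% of all tested genes were called, 446 higher and 251 lower (1.45% lower). Before adjustment for multiple tests, 4 genes were under the threshold of 0.05, all with lower values in double mutant embryos, and so were 12.9% of all tested genes. These were deps-1, meg-1, meg-3 and meg-4, whose adjusted p was 0.129, 0.134, 0.152 and 0.155 in this order (edgeR). Fitted log2 changes with the block were -0.29 ± 0.10 for deps-1, -0.43 ± 0.15 for meg-1, -0.27 ± 0.10 for meg-3 and -0.38 ± 0.15 for meg-4 (SE). The count depended on a single pair: without replicate 2 of both genotypes the blocked fit called 3 genes lower, meg-1 (-0.60, adjusted p = 0.00385), deps-1 (-0.40, adjusted p = 0.014) and glh-4 (-0.53, adjusted p = 0.0365) by edgeR, and without replicate 1 or replicate 3 it called 0. Over all genes the blocked count also turned on single pairs, with 11 called without replicate 1 (0.0625%), 2476 without replicate 2 (14.2%) and 181 without replicate 3 (1.03%). Of the 2476, 1361 were higher and 1115 lower in double mutant embryos, among 17436 genes tested in that fit.

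**Figure D3:**
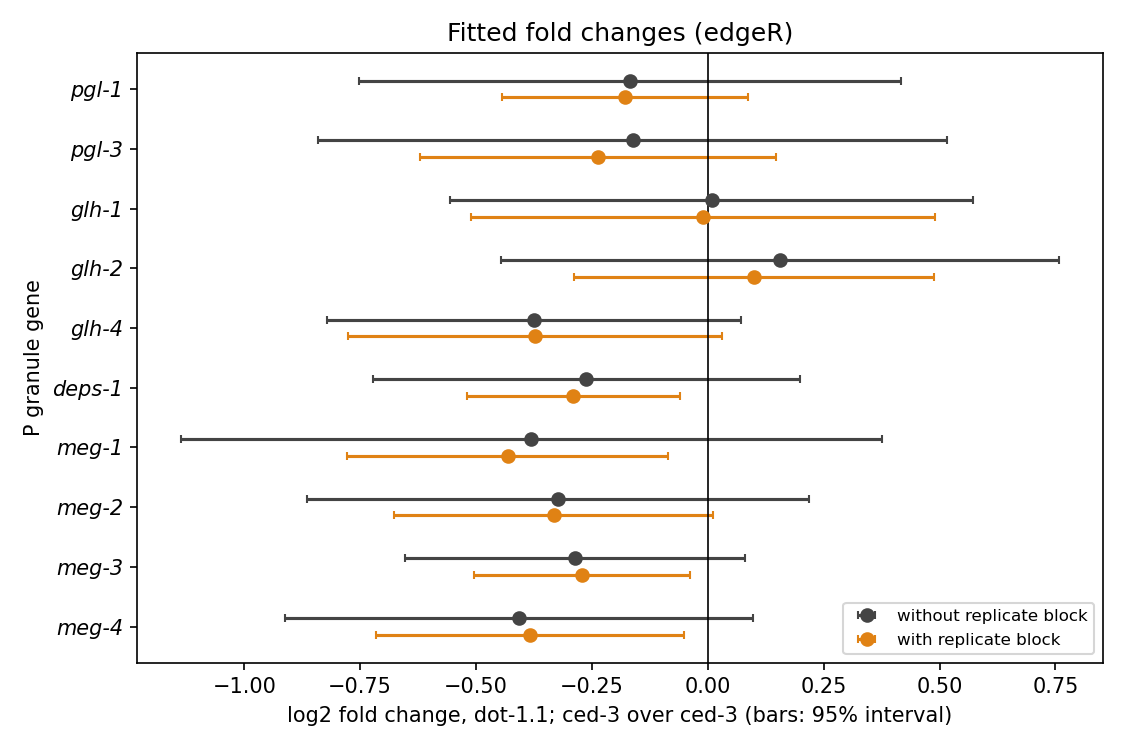
Log2 fold change of double over single mutant embryos for each P granule gene, with 95% intervals, from the edgeR fits without (grey) and with (orange) the replicate block. All 10 grey intervals include 0, and the orange intervals of deps-1, meg-1, meg-3 and meg-4 lie below 0 before adjustment for multiple tests.

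Within the 3 same-numbered pairs, 24 of 30 comparisons of a gene in a pair were lower in the double mutant library. The 10 genes share these pairs and many rose and fell together, so the 30 are not separate observations. With the block, fitted values lay below 0 for 9 of 10 genes and for 52.3% of all tested genes. The 4 MEG genes, deps-1 and glh-4 were lower in 3 of 3 pairs, as were 25.3% of all tested genes. The ratio of double over single mutant was 0.546 in pair 1, 0.926 in pair 2 and 0.803 in pair 3 for meg-1, and 0.726, 0.954 and 0.79 for deps-1. For meg-1 to meg-4 and deps-1 the ratio in pair 2 lay between 0.707 for meg-3 and 0.954 for deps-1. For glh-1 the pairs did not share a direction, with ratios of 1.37, 1.11 and 0.639. No P granule gene had all double mutant libraries below all single mutant libraries (0 of 10), a separation found for 7.91% of all tested genes.

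Levels of different genes were compared as CPM per kb of exon, since the 10 genes differ in exon length from 2044 bp for deps-1 to 3747 bp for glh-4. On this scale deps-1 was the highest, at 27.5 ± 7.93 CPM per kb in double mutant and 32.95 ± 4.76 CPM per kb in single mutant embryos (SD, n = 3 each), above 71.7% and 74.9% of 15081 tested protein-coding genes. Then came meg-3, at 19.4 ± 1.87 CPM per kb in double and 23.7 ± 4.57 in single mutants, pgl-1, at 19.5 ± 6.29 in double and 21.9 ± 5.74 in single mutants, and meg-1, at 13.01 ± 6.01 in double and 16.9 ± 4.77 in single mutants. These were all above the median of 10.18 CPM per kb for protein-coding genes. The other 6 genes lay below that median on their mean over 6 libraries, with pgl-3 at 6.78, meg-4 at 6.50, meg-2 at 4.15, glh-2 at 3.76, glh-1 at 3.53 and glh-4 at 3.10 CPM per kb.

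In this order deps-1 was above meg-3, pgl-1 above meg-1, meg-1 above pgl-3 and meg-4 above meg-2 in 6 of 6 libraries. The neighbours meg-3 and pgl-1, pgl-3 and meg-4, meg-2 and glh-2, glh-2 and glh-1, and glh-1 and glh-4 kept their order in 4 of 6 libraries each, and their ranges overlapped. The authors' treatment of reads shared by paralogues is not given, and such reads can shift levels between the GLH genes and between the members of the PGL and MEG pairs.

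The balance between related genes was compared as a share of their summed counts. The share of pgl-1 in the summed counts of pgl-1 and pgl-3 was 81.8%, 76.3% and 73.8% in double mutant libraries and 80.1%, 78.7% and 70.6% in single mutant libraries. The share of meg-3 in meg-3 and meg-4 was 78.1% ± 2.56 in double mutants and 76.7% ± 2.22 in single mutants, and that of meg-1 in meg-1 and meg-2 was 73.2% ± 4.2 in double mutants and 74.6% ± 2.81 in single mutants (SD, n = 3 each). The share of glh-1 in glh-1 and glh-2 varied most, at 57.5%, 32.4% and 42.6% in double mutant libraries and 45.2%, 38% and 54.5% in single mutant libraries. For each of the 4 shares the means of the genotypes differed by less than the SD of either genotype. The exact permutation test gave p = 0.5 to 0.9 (two-sided, 0.9 for all after adjustment over the 4 pairs). In this design the smallest possible p is 0.1, so the test could not have passed 0.05 for any shares.

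Other genes of germ granules were examined in a list of 24 names, of which 22 were found and tested. They include pgl-2 and glh-3, further members of the PGL and GLH families, and the Argonaute genes prg-1, csr-1, wago-1, ppw-2 and wago-4. Without the block 0 of 22 passed, and the median log2 fold change was -0.04. With it 1 of 22 passed, near the 4.01% of all tested genes. This was vbh-1, a DEAD-box helicase gene related to Vasa and Belle, with higher values in double mutants (0.37 ± 0.079 SE, adjusted p = 0.0452, edgeR), and it did not pass without replicate 1 (adjusted p = 0.284) or replicate 3 (adjusted p = 0.204, edgeR). Without replicate 2 the blocked fit called 6 of 22, 1 higher and 5 lower, where 14.2% of all genes were called. Its levels were 284.9, 197.5 and 241.1 CPM in double mutant and 213.0, 158.6 and 185.4 CPM in single mutant embryos, and 212 bp of its exons are shared with a small nucleolar RNA gene on the same strand. The family members pgl-2 (log2 fold change -0.16, adjusted p = 0.778) and glh-3 (-0.18, adjusted p = 0.754) did not pass (edgeR).

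Regulators of P granule segregation and germ cell fate made up a list of 28 genes, such as the RNA-binding protein genes mex-5 and pos-1 and the polarity kinase gene par-1. Without the block 0 of 28 passed and 22 had values below 0, with a median log2 fold change of -0.17. With the block 1 of 28 passed, again near the 4.01% of all tested genes. This was nos-2, which codes for a Nanos protein and whose messenger RNA is held in P granules by MEG-3, with lower values in double mutants (-0.69 ± 0.13 SE, adjusted p = 0.0386, edgeR). It did not pass without replicate 1 (adjusted p = 0.237) or replicate 3 (adjusted p = 0.173, edgeR). Without replicate 2 the blocked fit called 12 of 28, 1 higher and 11 lower, where 14.2% of all genes were called. The nos-2 transcript had 30.9, 51.4 and 26.8 CPM in double mutant embryos and 62.5, 64.4 and 44.2 CPM in single mutant embryos. Double mutant replicates 1 and 3 were below every single mutant library, as for meg-1 and deps-1. Exons of nos-2 share 154 bp with him-14 on the other strand.

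Autophagy removes PGL proteins from somatic cells of the embryo, with SEPA-1 as receptor and EPG-2 as adaptor. Of 26 names on this list 25 were tested, 0 passed with or without the block, and the median log2 fold change was -0.08 without the block. With the block without replicate 2, 3 of 25 passed, 1 higher and 2 lower, where 14.2% of all genes did. The smallest p without the block belonged to epg-8, a subunit of an autophagy lipid kinase complex (-0.36 ± 0.11 SE, adjusted p = 0.284), and atg-16.1 (-0.40 ± 0.13 SE, adjusted p = 0.294, edgeR). Exons of epg-8 share 13 bp with Y106G6A.4 on the other strand. The receptor gene sepa-1 had 165.6, 256.6 and 125.4 CPM in double mutant embryos and 186.2, 250.6 and 140.2 CPM in single mutant embryos, high in replicate 2 of both like pgl-1.

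Levels of other transcripts that mark embryonic age and cell types are given beside these values, and their part in them was not tested. Of 22 maternal transcripts 20 were tested, 0 passed in either fit, and 15 lay below 0 without the block (median log2 fold change -0.17). Among these were gly-20 (-0.21 ± 0.12 SE, adjusted p = 0.518) and egg-2 (-0.35 ± 0.28 SE, adjusted p = 0.619, edgeR). With the block without replicate 2, 5 of 20 were called lower, where 14.2% of all genes were called in either direction. The summed level of the 22 was 823 to 1541 CPM in double mutant embryos and 1245 to 1373 CPM in single mutant embryos. It was lowest in double mutant replicate 1 and highest in double mutant replicate 2. Germ cell markers other than the 10 genes summed to 337.5, 557.6 and 362 CPM in double mutant replicates 1, 2 and 3 and to 456.6, 559.1 and 428.9 CPM in single mutant replicates 1, 2 and 3. All of these 11 markers are also in the lists of germ granule genes and regulators above, so they are no separate set. Without the block 0 of the 11 passed, 9 lay below 0 and the median was -0.18, and with the block 1 passed, which is nos-2 again. With the block without replicate 2, 3 of 11 were called lower, where 14.2% of all genes were called in either direction. The 10 P granule genes summed to 232.7, 332.8 and 222.0 CPM in double mutant and to 314.3, 362.1 and 259.2 CPM in single mutant replicates, so both sums were highest in replicate 2 of each genotype.

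Tissue markers, unlike the maternal transcripts, had medians above 0 in 4 of 5 lists. Without the block, values lay below 0 for 1 of 11 muscle, 2 of 8 pharynx and 5 of 10 intestine markers. So did those of 3 of 10 neuron and 9 of 10 epidermis markers. The intestine list mixes genes of early fate with later ones. Its values below 0 were those of elt-2 (-0.07), elt-7 (-0.40), end-1 (-0.47), end-3 (-0.30) and ges-1 (-0.14). The level of end-3 was low, at 0.41 to 1.44 CPM. The other markers of this list lay above 0. With the block 2.57% of all tested genes were called higher. Without replicate 1 the blocked fit called 0 markers of these 5 lists, and 0.0625% of all genes in either direction. Without replicate 3 it called 3 muscle, 3 pharynx, 2 intestine and 1 neuron markers higher. Over all genes it then called 1.03% in either direction (181 genes, 160 of them higher). Without replicate 2 these counts of markers were 7, 5, 4 and 5, against 14.2% of all genes in either direction (2476 genes, 1361 of them higher). The 11 muscle markers summed to 5733 to 10380 CPM in double mutant and 4331 to 6208 CPM in single mutant embryos, with 0 of 11 called without the block and 5 of 11 higher with it (median log2 fold change 0.49 without it). The 8 pharynx markers summed to 940 to 1631 CPM in double mutant and 532.9 to 676.8 CPM in single mutant embryos, which do not overlap. Without the block 0 of 8 were called, and with it 4 of 8 were called higher. The pharynx markers pha-4 (-0.01) and ceh-22 (-0.14) lay below 0 without the block, as did hlh-1 (-0.15) of the muscle list. How often sums of other lists separate was not tested. The values of muscle were lowest in replicate 2 of each genotype, where 5 of the 10 P granule genes had their highest level. Intestine markers summed to 677.2 to 777.9 CPM in double mutant and 498.6 to 556.4 CPM in single mutant embryos (3 of 10 higher with the block). Neuron markers summed to 943.7 to 1056 CPM in double mutant and 763.1 to 863.4 CPM in single mutant embryos (3 of 10 higher with the block). The sums of intestine and of neuron markers do not overlap between the genotypes either. Epidermis markers overlapped, at 1495 to 1729 CPM in double mutant and 1405 to 1996 CPM in single mutant embryos, with 0 of 10 called in either fit. With the block without replicate 2, 4 of 10 were called lower, where 1115 of 17436 tested genes were.

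**Figure D4:**
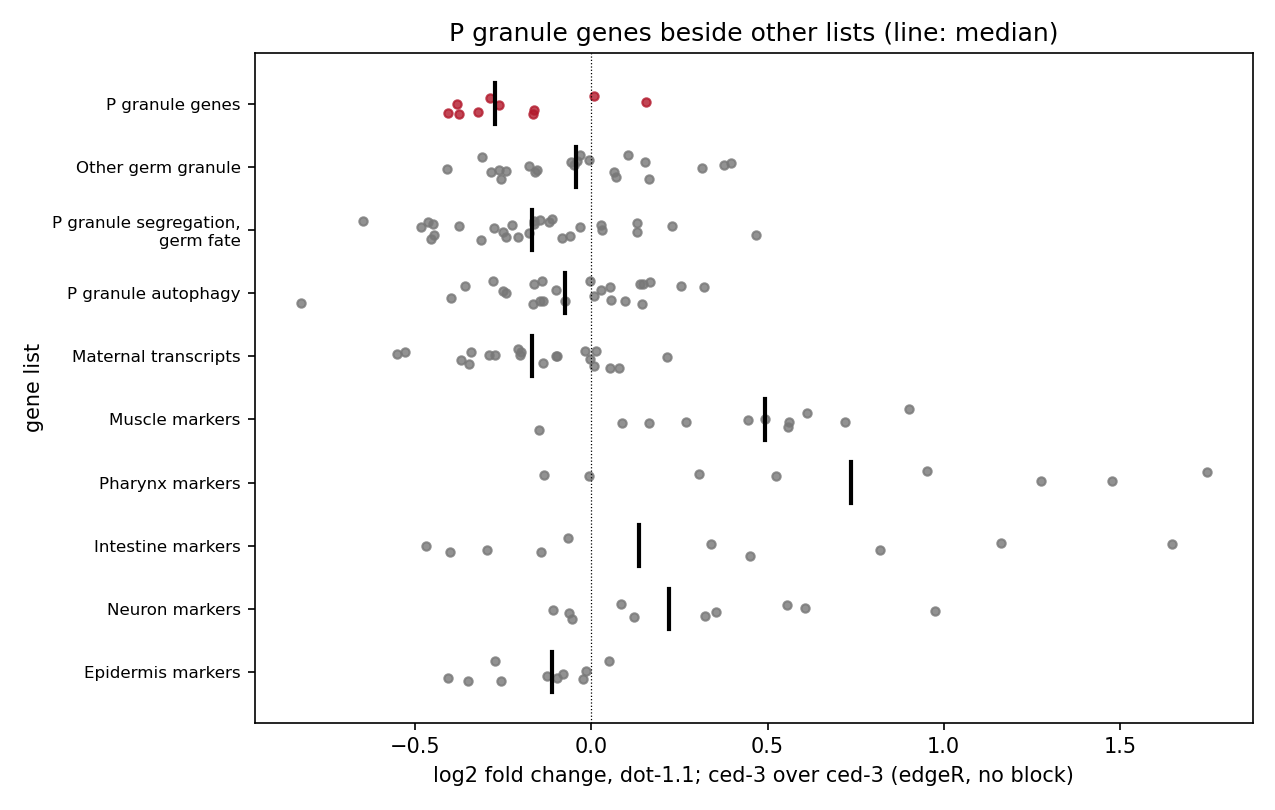
Log2 fold change of double over single mutant embryos (edgeR without the block) for each tested gene of the named lists, 1 point per gene, with a line at each median; vertical scatter within a row has no meaning. The P granule genes (red, median -0.28) lie between -0.41 and 0.16, and the pharynx and muscle markers have medians of 0.74 and 0.49.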

How the data were processed

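The authors deposited raw read counts per gene, whole numbers in 1 table with a column per library, and each column was tied to its sample by the description the labels give. HISAT2 2.0.5, StringTie and the build WBcel235 are named in the submitters' processing notes. No source used here states the counting program, the use of strand or the treatment of shared reads. Names, exon lengths and coordinates came from Ensembl release 115, matched by sequence name (46180 of 46659 rows).

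Genes were filtered with filterByExpr (17365 kept), scaled by TMM and tested with edgeR 4.0.16 in R 4.3.3 (quasi-likelihood, robust, no term but genotype). Tests were two-sided, with Benjamini-Hochberg adjustment of p-values over the 17365 genes. CPM include the TMM factors. The fits were also run on simulated data, of which no outcome is given here. That run is therefore no evidence that they could find changes as small as those fitted for the P granule genes. Alternatives were a replicate block, RLE scaling, no filter, DESeq2 1.42.0 and leaving out libraries or pairs. Libraries of the same number in both genotypes deviated together (correlations 0.169, 0.199 and 0.32, all over the limit of 0.1, and other combinations from -0.239 to 0.0587). On this basis they were treated as pairs in the blocked fit. No replicates agreed within sampling noise (chi-square per degree of freedom at least 109).

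The members and lists were chosen with earlier results of these data known. The genes named beside the 10 are, per list, those called in either fit (at most 4, by p) or otherwise the 2 with the smallest p. The genes mex-5, pos-1, par-1, sepa-1, pgl-2, glh-3, elt-2, elt-7, end-1, end-3 and the Argonaute genes were named outside this rule, after their values were seen. So were ges-1, pha-4, ceh-22 and hlh-1. Markers called in the lists of muscle, pharynx, intestine and neurons are given as counts. The names zsp-1, cde-1 and epg-1 had no match in the annotation and were not used. That the replicates are biological is taken from the labels, which do not speak of separate cultures.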

Additional observations from a re-analysis of the deposited data

How the results depend on the processing

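No P granule gene was called under 12 of the 13 alternatives. The exception was the fit with the replicate block without replicate 2, which called 3. Of 130 fold changes of the 10 genes under these alternatives, 117 kept direction and side of the threshold, 3 passed and 10 changed sign, and none of the 10 that changed sign passed. For glh-1 the value was -0.001 without a filter on low counts and -0.0096 with the replicate block, -0.2583 and -0.0936 with the block without replicate 1 and 2, and -0.2608 to 0.1765 when single libraries were left out. For glh-2 it was -0.1066 with the block without replicate 2, and -0.1753 to 0.3164 when single libraries were left out. The same ranges were -0.4282 to 0.0389 for pgl-1 and -0.4708 to 0.1042 for pgl-3. The other 6 kept their sign over these omissions, with ranges of -0.4883 to -0.2475 for glh-4, -0.4925 to -0.14 for deps-1, -0.7928 to -0.1721 for meg-1, -0.5134 to -0.1591 for meg-2, -0.4349 to -0.158 for meg-3 and -0.6054 to -0.2454 for meg-4. The cause was not tested.

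Over all genes, 697 were called with the replicate block, 11, 2476 and 181 with the block without replicates 1, 2 and 3 in turn, 489 by DESeq2, 4 without a filter on low counts, and 1 to 43 when single libraries were left out. Of the 4 gene lists together, 2 members were called with the block, 26 with the block without replicate 2 and 0 with the block without replicate 1 or 3. The difference in share, in percentage points, ran over the omissions of single libraries from -2.14 to 2.62 for pgl-1, -8.39 to 4.16 for glh-1, -3.48 to 0.727 for meg-1 and 0.0762 to 2.76 for meg-3. The largest fitted log2 change of the 10 genes was -0.41 (meg-4) without the block and -0.43 (meg-1) with it. Without the block their 95% intervals reached down to 0.455-fold (meg-1) and up to 1.69-fold (glh-2), so equal levels are not shown.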

Other observations

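The genes that flank the 10 P granule genes were looked at in the same fits. Of 18 flanking protein-coding genes that are not P granule genes themselves, 15 were tested and 0 passed without the block. In that fit 12 of 15 had values below 0, as had 52.1% of all tested genes. The median log2 fold change was -0.26, against -0.02 over all tested genes. Above 0 were lin-59 (0.42), acs-13 (0.19) and let-383 (0.01). With the block 1 of 15 passed, where 4.01% of all tested genes did. This was lin-59, which codes for a histone methyltransferase and lies 5869 bp from glh-4 on the other strand, and it did not pass without replicate 1 (adjusted p = 0.27) or replicate 3 (adjusted p = 0.137, edgeR). Its log2 fold change with the block was 0.43 (adjusted p = 0.0445, edgeR), while that of glh-4 was -0.37. The meiotic chromosome axis gene him-3 starts 189 bp from pgl-1 on the other strand and had a log2 fold change of -0.43 (adjusted p = 0.528), against -0.17 for pgl-1. The linker histone gene hil-4 lies 525 bp from pgl-3 on the same strand, at -0.34 (adjusted p = 0.547). The DEAD-box helicase gene sacy-1 lies 337 bp from glh-1 on the same strand, at -0.13 (adjusted p = 0.706, edgeR). These flanking genes were named after their values were seen.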
